A study of Mus musculus with 16 samples.

Results

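Mouse embryonic fibroblasts over-expressing c-Jun were compared with fibroblasts over-expressing DR, the control of the same set, by RNA sequencing of 1 library each. The comparison takes 2 of the series' 16 samples, those that the labels name MEF_c-Jun and MEF_DR, and covers 11114 of the 20325 genes in the table. These are the genes with at least 5 counts per 1000000 (CPM, scaled between libraries) in 1 of the 2 libraries. The same table holds 3 other fibroblast libraries used here for context: wild-type cells (WT MEF) and cells over-expressing c-JunDN or Jdp2. All 5 came from OG2 transgenic fibroblasts, which carry a reporter of Oct4, at passage 2, on a mixed background of 129SVJ, C57B6 and CBA. The labels do not say what DR or c-JunDN stands for, when after gene delivery the cells were taken, how many cells took up the gene, or from how many embryos they came. A second system of the series, embryonic stem cells (ESC) with doxycycline-inducible c-Jun at passage 5, induced for 36 h or left without doxycycline, served as a further comparison. The design text of the series gives the purpose of the fibroblast libraries as learning how these factors regulate gene expression, beside reprogramming experiments in which c-Jun was a block.

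c-Jun is a basic leucine zipper protein and the best known subunit of AP-1, the transcription factor formed when Jun proteins pair with each other or with Fos, Fosl and Atf proteins. AP-1 binds the letters TGANTCA and near relatives, is activated by growth factors, stress and injury through MAP kinases, and is known in fibroblasts for genes of matrix breakdown, migration and growth. Jdp2, the Jun dimerization protein, pairs with c-Jun and is known mostly as a repressor of AP-1 targets.

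With 1 library a side no test of a condition could be made. A gene is called higher or lower here when the ratio of (CPM + 1) between the libraries was 2-fold or more. The 95% intervals are exact, cover counting error only, and say nothing of how far 2 cultures of a group would differ. Folds are ratios of CPM, log2 ratios are of CPM + 1, and fewer cells making a transcript and less transcript per cell cannot be told apart in these bulk samples. The library totals ran from 1961268 to 21415021 expected counts, WT MEF being the deepest by far, and 13774 to 14787 genes had a count. A gene with 0 counts is given as a bound against 3 counts, which correspond to 1.45 CPM in the DR library and 1.5 CPM in the c-Jun library.

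Jun itself checked the labels. Its level was 11965 CPM with c-Jun and 88.5 CPM with DR, a ratio of 135 (95% interval 117 to 157). It stood at 61.1 CPM in WT MEF, at 67.5 CPM with Jdp2 and at 3968 CPM with c-JunDN. Both libraries labelled with a form of c-Jun were thus far above the other 3, and reads of an introduced and a native Jun transcript were not separated. Jdp2 was at 7226 CPM in its own library and between 58.8 and 101 CPM in the other 4.

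Sequence just before the transcription start is shown for genes at the ends of the comparison, because the capitals are the letters that AP-1, interferon-activated factors or serum response factor are known to bind. The sequences are RefSeq's (GRCm38.p6, a later build than the mm9 of the counts), 5′ to 3′ on the gene's strand. The search covered 250 bases before the start, on both strands. The higher genes searched were taken from the 15 named genes with the highest ratios that were also called against WT MEF, where a promoter was listed. Mmp10, Inhba, Il11, Dusp10, Wnt2b, Itga2 and Srxn1 were added by hand. The letters TGANTCA stand in capitals in the promoters of 6 genes that were higher with c-Jun, of 18 searched. They are Serpinb2 (chr1:107511299-107511365, plus strand), Sprr1a (chr3:92485961-92486057, minus strand, with 2 matches), Mmp10 (chr9:7502249-7502315, plus strand), Il11 (chr7:4778203-4778269, minus strand), Srxn1 (chr2:152105392-152105515, plus strand, with 2 matches) and Xirp2 (chr2:67445865-67445931, plus strand).
Serpinb2: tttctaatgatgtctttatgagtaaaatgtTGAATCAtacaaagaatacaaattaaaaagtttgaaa
Sprr1a: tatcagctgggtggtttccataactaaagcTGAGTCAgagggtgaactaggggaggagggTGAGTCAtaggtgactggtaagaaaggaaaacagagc
Mmp10: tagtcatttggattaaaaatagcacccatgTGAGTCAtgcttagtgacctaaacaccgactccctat
Il11: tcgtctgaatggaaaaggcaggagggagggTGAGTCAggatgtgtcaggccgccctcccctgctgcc
Srxn1: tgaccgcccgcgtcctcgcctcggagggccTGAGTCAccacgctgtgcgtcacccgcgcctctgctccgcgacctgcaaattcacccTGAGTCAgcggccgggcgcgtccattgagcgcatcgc
Xirp2: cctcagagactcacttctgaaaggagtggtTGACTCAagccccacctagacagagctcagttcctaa

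Of 32851 RefSeq promoters of 300 bases (250 before to 50 after the start), 7.81% held TGANTCA. The genes searched were picked, and over a shorter stretch, so their matches give no share to set beside this. The other 12 genes searched, Jun, Adam8, Gal, Sema7a, Inhba, Dusp10, Wnt2b, Itga2, Cdh10, Gsta2, Lce1h and Notch4, had no match in the 250 bases, nor had another listed start of Il11. For genes that were lower, the letters GAAANNGAA, the core that interferon-activated factors bind, are in capitals in Ifit1 (chr19:34640750-34640843, plus strand, with 3 matches) and Stat2 (chr10:128270248-128270315, plus strand). A CArG box, the motif of serum response factor, is in capitals in Myl9 (chr2:156775273-156775342, plus strand). Irf7 and Oasl2, searched for GAAANNGAA, and Mylk, searched for a CArG box, had no match.
Ifit1: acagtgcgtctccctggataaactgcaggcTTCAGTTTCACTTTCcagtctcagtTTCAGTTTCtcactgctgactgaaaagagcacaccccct
Stat2: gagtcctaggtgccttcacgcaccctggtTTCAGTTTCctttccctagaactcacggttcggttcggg
Myl9: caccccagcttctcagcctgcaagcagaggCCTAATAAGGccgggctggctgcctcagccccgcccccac

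GAAANNGAA was in 8.56% of all promoters and a CArG box in 1.63%. A share for all higher or lower genes would be void, because 74.1% of the higher and 76.3% of the lower genes had a promoter in the table, under the 80% needed. The interferon-stimulated genes were short of it too, at 74.4%. Among contractile genes, where 24 of 28 had a promoter, 9 of 29 promoters (31.0%) held a CArG box. That list was drawn up to hold known targets of serum response factor, so its share follows in part from its making. Among genes of antigen presentation, 17 of 20 had a promoter and 5 of 19 promoters (26.3%) held GAAANNGAA. A match is a run of letters and no evidence of binding.

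Across all measured genes, 861 (7.75%) were higher and 1060 (9.54%) lower with c-Jun than with DR, and 9193 were neither. The median log2 ratio of all measured genes was 0.0048. Counts and medians of the gene lists that follow are descriptions to be read beside these shares and this median. The counting interval excluded a ratio of 1 for 824 of the higher and 1015 of the lower genes. At 8-fold or more there were 136 higher and 153 lower genes. The higher genes together went from 23936 CPM with DR to 92681 CPM with c-Jun, and the lower genes from 170543 to 50263 CPM. Genes at 5 to 20 CPM were called more often (11.0% higher and 14.2% lower) than genes at 20 to 100 CPM (6.27% and 7.23%). Above 500 CPM, 27 of 330 genes were higher and 41 lower.

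**Figure D1:**
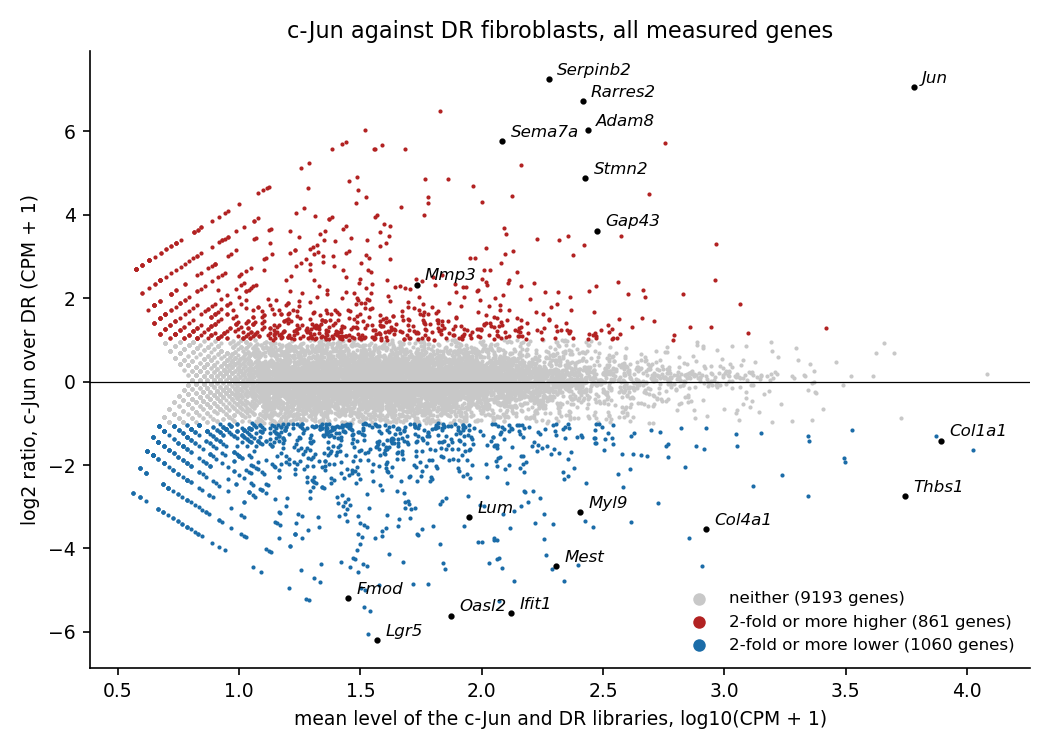
Each point is 1 of the 11114 measured genes, with its mean level in the c-Jun and DR libraries on the x axis (log10 of CPM + 1) and its log2 ratio of c-Jun over DR on the y axis. Red points are the 861 genes called higher and blue points the 1060 called lower, with Jun alone at the upper right.

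Set against the other fibroblast libraries, c-Jun was the highest of the 5 libraries in 727 of the 861 higher genes and the lowest in 833 of the 1060 lower genes. Against WT MEF as the control, 11% of 10990 genes were higher and 13.7% lower with c-Jun. Of the genes called against DR, 530 were higher and 553 lower against WT MEF too, the c-Jun library being part of both comparisons. The direction was opposite against WT MEF for 5 of the higher and 16 of the lower genes. In the DR library, 344 of the lower genes were at least 2-fold above WT MEF and 207 of the higher genes at least 2-fold below it. Of 11668 genes measured in any fibroblast library, 395 (3.39%) were at least 2-fold higher with c-Jun than in each of the other 4, and 451 (3.87%) at least 2-fold lower.

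**Figure D2:**
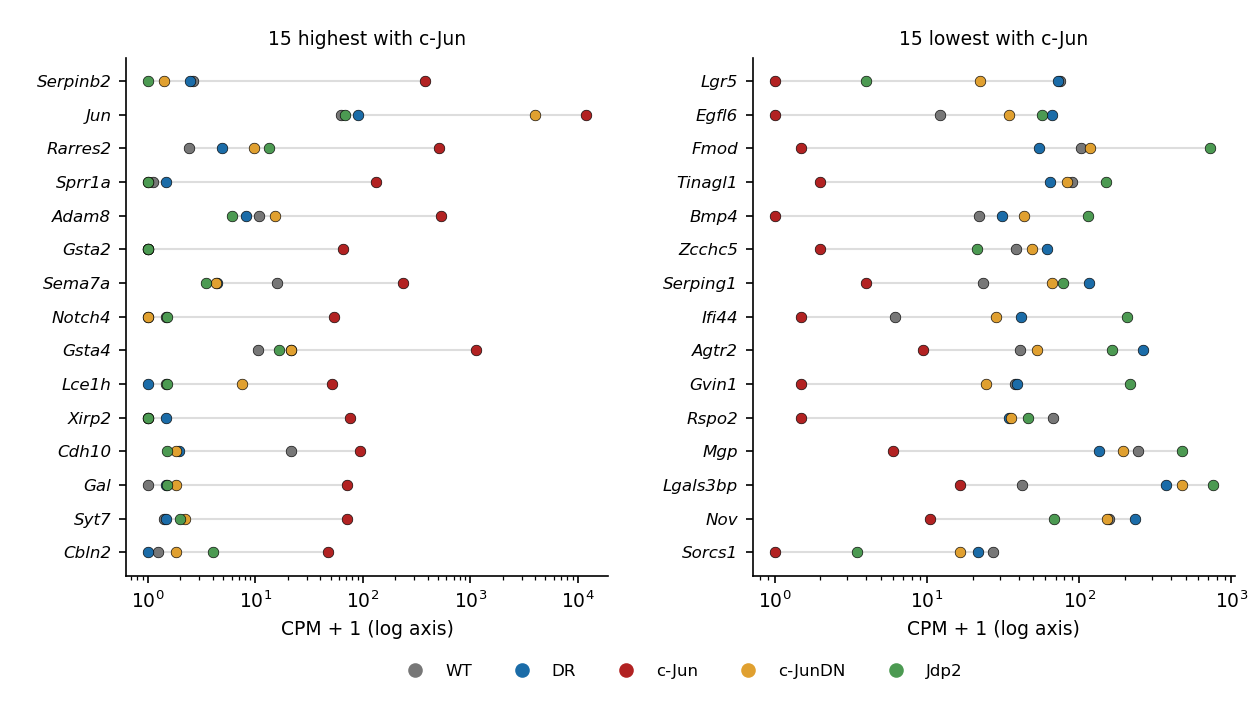
The 15 highest (left) and 15 lowest (right) named genes that were called the same way against DR and WT MEF, with CPM + 1 on a log axis and 1 coloured point for each of the 5 fibroblast libraries. The red c-Jun points lie at the high end of every line on the left and at the low end of every line on the right, and Jun is also high with c-JunDN, at 3968 CPM.

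The highest genes coded for proteins of several kinds. Serpinb2, the inhibitor PAI-2 of plasminogen activators, was at 375 CPM with c-Jun and at 1.45 CPM with DR, 1.65 in WT MEF, 0.41 with c-JunDN and 0 with Jdp2. Its ratio was 258 with a wide interval (88.1 to 1256), since 3 counts lay behind the DR value. Rarres2, the secreted attractant chemerin, was at 515 CPM against 3.87 with DR, a ratio of 133 (67.4 to 309). Adam8, a membrane protease, was at 537 CPM against 7.25 CPM, a ratio of 74.1 (44.7 to 133), and between 5.00 and 14.4 CPM in the other 3 libraries. None of these 3 genes came near its c-Jun level in another fibroblast library.

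Sema7a, a membrane-anchored semaphorin, was at 237 CPM with c-Jun and between 2.50 and 14.7 CPM in the other 4 fibroblast libraries. Xirp2, a muscle protein that binds actin, was at 75.0 CPM from 1 count (0.48 CPM) with DR, a ratio of 155 (27.4 to 6164). Cdh10, a cadherin, was at 93.5 CPM against 0.97 with DR and 20.6 in WT MEF. Syt7, a calcium sensor of vesicle release, was at 69.5 CPM against 0.48 CPM with DR. Cbln2, a secreted synapse organiser, had no count with DR and was at least 32.04-fold higher at 46.5 CPM. Notch4, a receptor of the Notch family, also had no count with DR and was at least 36.5-fold higher at 52.98 CPM. Lce1h, a protein of the skin's cornified envelope from a cluster of close copies, was at least 35.1-fold higher, with 6.56 CPM in the c-JunDN library as the next level.

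Of 16 measured members of the AP-1 family, Jun included, 2 were higher and 2 lower, with a median of -0.08 (0.23 against WT MEF). Fosl1, the Fra-1 partner of Jun and itself a known AP-1 target, was at 23.5 CPM against 1.93 CPM with DR (ratio 12.1, interval 4.44 to 46.4) and 13.8 CPM in WT MEF. Fos, the partner induced by serum, was 4.68-fold lower (1.91 to 13.8), at 3.00 against 14.0 CPM. Among those under the 2-fold call were Junb (-0.47), Jund (-0.79), Fosb (-0.34), Fosl2 (0.08), Jdp2 (-0.15), Atf2 (0.34), Atf3 (0.21) and Atf7 (0.16), with their log2 ratios in brackets.

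Immediate early genes, which serum and growth factors switch on within minutes, split in both directions, with 5 of 18 higher, 6 lower and a median of -0.43. The lower ones were led by Nr4a1, an orphan nuclear receptor, at 1.5 against 32.9 CPM (21.9-fold lower, 7.19 to 109). Klf4 and Klf2, zinc finger factors of growth arrest and pluripotency, were 7.74-fold (5.32 to 11.6) and 9.67-fold (3.01 to 49.5) lower. Egr3 was the highest, at 14.5 CPM from 1 count with DR, a ratio of 29.97 (4.97 to 1224). Among 17 genes listed for negative feedback on ERK signalling, 4 were higher and 1 lower, but 3 and 3 against WT MEF. The highest of the list, Dusp10, is a phosphatase that acts on JNK and p38, so its level does not speak for ERK feedback. Dusp10 was at 175 CPM against 5.80 with DR (ratio 30.2, 17.1 to 59.1) and at most 18.2 CPM in the other 3 libraries. Spry1, an inhibitor of receptor tyrosine kinase signalling, was the lower one, at 3.50 against 56.1 CPM.

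Proteases of the matrix went both ways, so that the list of 30 metalloproteinases and inhibitors had 7 higher and 9 lower members and a median of -0.08. Mmp10, stromelysin 2, was at 58.5 CPM with c-Jun and at most 1.45 CPM in the other 4 libraries. Its ratio to DR was 40.3 (13.5 to 198). Mmp3, stromelysin 1, was at 89.0 CPM against 16.9 with DR and 7.13 in WT MEF, and Mmp12, macrophage elastase, was at 46.0 CPM against 7.25 CPM with DR. Mmp13, interstitial collagenase 3 and a textbook AP-1 target, was in contrast lower, at 5.00 CPM against 22.7 with DR and 26.8 in WT MEF. The aggrecanases Adamts1 and Adamts5 were 9.25-fold (7.22 to 12.0) and 8.17-fold (6.28 to 10.8) lower.

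In the plasminogen system, whose activators turn plasminogen into the protease plasmin, 4 of 14 genes were higher and 1 lower, with a median of 0.39. Against WT MEF 2 of 15 were higher and 3 lower, and the median was -0.17. Plat, tissue plasminogen activator, was at 541 CPM against 190 with DR and 131 in WT MEF. Serping1, the inhibitor of complement C1, was 38.4-fold lower (17.4 to 106).

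Cytokines and growth factors had members far from DR in both directions. Of 12 measured cytokine genes 4 were higher and 2 lower, with a median of 0.54. None of the 6 with at least 5 CPM in both libraries was called, so all calls lie in genes that passed the filter on 1 side only, and the median was 0.22 with a filter of 20 CPM. Il33, an alarmin of the IL-1 family, was at 87.0 CPM with c-Jun and at most 8.62 CPM elsewhere (ratio to DR 22.5, 11.2 to 52.9). Il11, a cytokine of the IL-6 family, was at 44.5 CPM against 3.39 CPM (ratio 13.1, 6.12 to 33.6). Il1rn, the antagonist of the IL-1 receptor, was 30.5-fold lower (11.6 to 114), at 2.00 CPM against 60.9 with DR and 124 in WT MEF. With Jdp2 it was lower still, at 1.00 CPM.

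The list of other growth factors and receptors had nearly equal sides, with 13 higher and 12 lower of 30 and a median of -0.19. Vegfa, the main angiogenic factor, was at 612 CPM against 117 with DR and 88.3 in WT MEF. On the other side were the mesenchymal factors Fgf10, at 1.00 against 29.5 CPM, and Fgf7, at 6.50 against 82.2 CPM. Pdgfrb, the PDGF receptor of mesenchymal cells, was 4.84-fold lower (4.07 to 5.80), at 77.0 CPM against 373 with DR and 620 in WT MEF. Ghr, the growth hormone receptor, was 8.08-fold lower (5.88 to 11.4). Igf2, a fetal growth factor from an imprinted gene, was at 1363 against 4881 CPM, and the c-JunDN library was as low at 1316 CPM.

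Ligands of the TGF-beta superfamily were among these genes as well. Inhba, the activin A subunit, was at 935 CPM with c-Jun against 40.6 with DR and 196 in WT MEF, a ratio to DR of 23.01 (18.5 to 29.0). Fst, its extracellular antagonist follistatin, was 5.49-fold lower (3.86 to 8.01), at 18.5 CPM. Of the 22 measured TGF-beta genes Inhba alone was higher and 5 were lower, Fst among them, with a median of -0.30. In the BMP list of 19 genes, 4 were higher and 8 lower. With at least 5 CPM required in both libraries 12 were left, 2 of them higher and 4 lower. Bmp4 had no count with c-Jun and was at least 19.99-fold lower than the 29.98 CPM with DR, while Bmp6 was at 20.5 CPM from 1 count with DR (ratio 42.4, 7.19 to 1714). The antagonists Grem1 (14.4-fold, 8.38 to 26.8) and Chrd (24.2-fold, 3.96 to 993) were lower.

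Wnt genes were lower in 12 of 31 cases and higher in 5, with a median of -0.71. With at least 5 CPM required in both libraries 20 were left, 5 of them lower and 3 higher, with a median of -0.66. The other calls lie in genes that passed the filter on 1 side only. Lgr5, the receptor of R-spondins, had 149 counts with DR and none with c-Jun, which makes it at least 48.1-fold lower. Its level was 72.1 CPM with DR, 73.9 CPM in WT MEF, 21.3 CPM with c-JunDN and 3.00 CPM with Jdp2. Rspo2, a ligand of Lgr5, was 66.8-fold lower from 1 count (11.6 to 2674). Sfrp1, a secreted Wnt antagonist, was 14.2-fold lower (10.6 to 19.5), at 23.5 against 334 CPM. Wnt2b, a ligand, was the highest of the list, at 111 CPM against 2.90 with DR and 31.999 with c-JunDN. Ligands, receptors and antagonists of this pathway each had both lower and higher members.

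Guidance genes, which steer migrating cells and axons, had 7 of 35 higher and 12 lower, with a median of -0.36. Besides Sema7a, the transmembrane Sema6d was higher, at 55.0 against 6.77 CPM, and the receptors Robo2 (28.1-fold, 4.65 to 1146) and Unc5c (9.77-fold, 5.10 to 20.995) were lower. Of 25 integrins and adhesion receptors 4 were higher and 8 lower. The higher ones were Itga2, a collagen receptor subunit, at 34.0 CPM against at most 2.07 CPM in the other libraries, Itga7, a laminin receptor subunit, Itga5, the fibronectin receptor subunit, and Itgb3. Itga7 was at 241 CPM against 26.6 with DR and 88.4 with Jdp2. Itga5 was at 1542 CPM against 282 with DR and 735 in WT MEF. Itga8, another subunit for fibronectin and nephronectin, was 19.3-fold lower (8.63 to 53.8), and the leukocyte adhesion receptor Vcam1 22.5-fold lower (14.1 to 38.4).

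Matrix genes of several kinds were lower with c-Jun. Fibrillar and related collagens had 9 of 24 members lower and 3 higher, with a median of -0.87 where all measured genes had 0.0048. Col1a1, the main chain of type I collagen, was at 4254 CPM with c-Jun, 11349.7 CPM with DR, 25089 CPM in WT MEF, 11306 CPM with c-JunDN and 5873 CPM with Jdp2. Col1a2 was at 4271 against 10548 CPM, a 2.47-fold lower level (2.41 to 2.53). Col11a1 was 18.7-fold lower (13.5 to 26.8) and Col8a2, without a count with c-Jun, at least 6.13-fold lower. Col5a3 was the exception at the other end, at 475 CPM against 48.4 with DR and 141 in WT MEF.

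Of the 9 measured small leucine-rich proteoglycans, which bind and space collagen fibrils, 8 were lower, none was higher, and the median was -3.24. With at least 5 CPM required in both libraries 7 were left, 6 of them lower, with a median of -1.94. Fmod, fibromodulin, was at 0.50 CPM (1 count) with c-Jun against 53.7 CPM with DR and 102 CPM in WT MEF, and reached 724 CPM with Jdp2. Lum was 10.0-fold lower (6.95 to 14.9), Aspn 14.9-fold (10.2 to 22.5), Podn 15.6-fold (10.2 to 24.9) and Prelp 15.8-fold (8.10 to 35.2). Bgn, biglycan, was at 1301 against 4984 CPM, and Dcn, decorin, at 96.0 CPM against 318 with DR and 98.7 in WT MEF. Dcn was therefore low against DR but level with wild-type cells.

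Basement membrane genes had 9 of 18 members lower and 1 higher, with a median of -0.95. The type IV collagen chains Col4a1 and Col4a2, which share a promoter region, were at 133 and 97.97 CPM with c-Jun against 1545 and 1324 CPM with DR. They lay between 1632 and 2415 CPM in the other 3 libraries. Nid2, nidogen 2, was 9.30-fold lower (6.88 to 12.8), and Tinagl1, a matrix glycoprotein, 63.4-fold lower from 2 counts (17.2 to 529). Lamb3, a laminin chain of epithelia, had no count with DR and was at least 3.79-fold higher at 5.50 CPM.

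Elastic fibre genes had 7 of 22 lower and 4 higher. Eln, elastin, spread widely over the fibroblast libraries, at 5.00 CPM with c-Jun, 54.6 with DR, 431 in WT MEF, 855 with c-JunDN and 5963 with Jdp2. Lox, the enzyme that cross-links collagen and elastin, was at 392.4 against 2239 CPM, 5.71-fold lower (5.29 to 6.16). Fbn2, fibrillin 2, was 10.4-fold lower (8.76 to 12.4). The matricellular list was evenly divided, with 8 of 25 higher and 8 lower. Its median was 0.83, but 0.20 both with a filter of 20 CPM and from the deposited fraction. Thbs1, thrombospondin 1, was at 1429 CPM with c-Jun against 9641 with DR and 25247 in WT MEF, while its relative Thbs2 was at 3717 against 1535 CPM. Fn1, fibronectin, was 3.09-fold lower (3.02 to 3.16). Sparcl1 was at 228 CPM against 16.9 with DR and 1.95 in WT MEF.

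**Figure D3:**
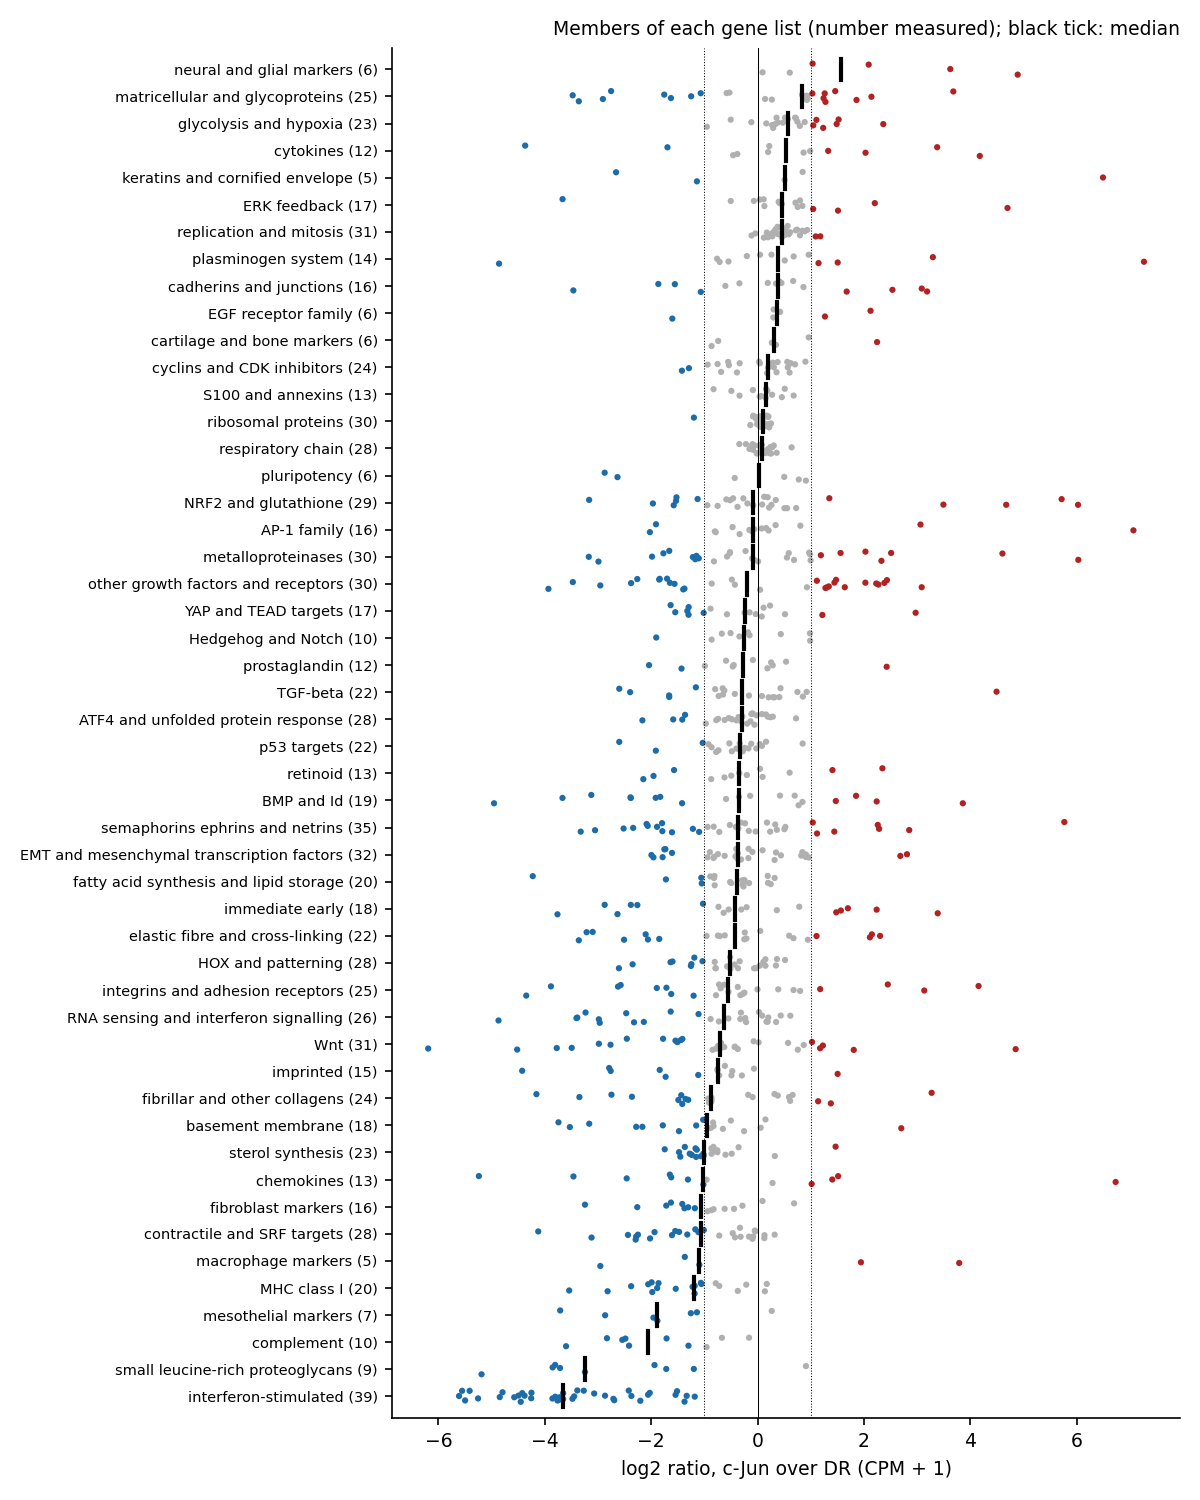
Every measured member of each list with at least 5 measured genes is a point at its log2 ratio of c-Jun over DR on the x axis, red or blue when called, and the black tick is the list's median. Interferon-stimulated genes (median -3.65) and small leucine-rich proteoglycans (-3.24) are at the bottom, and neural and glial markers (1.56) at the top.

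Contractile genes driven by serum response factor were lower in 15 of 28 cases and higher in none, with a median of -1.06. Mylk, myosin light chain kinase, was 22.1-fold lower (10.5 to 55.9), at 3.50 against 77.4 CPM. Myl9, the regulatory myosin light chain whose promoter is shown above, was 8.85-fold lower (7.21 to 10.95), at 51.5 CPM against 456 with DR and 772 in WT MEF. Myh11 and Actg2, smooth muscle myosin and actin, were 5.14-fold (3.51 to 7.75) and 5.53-fold lower (4.33 to 7.14). Actg2 reads may be shared with close actin copies. Against WT MEF 22 of 28 were lower and the median was -2.05, and 11 of the 28 were at least 2-fold lower in DR than in WT MEF. Among 17 YAP and TEAD targets 6 were lower and 2 higher. Ankrd1 was the highest at 166 CPM against 20.3 with DR and 74.1 in WT MEF.

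Interferon-stimulated genes, the antiviral set switched on by type I interferon through factors such as Stat2 and Irf9, were lower with c-Jun than with DR in all 39 measured cases, beside 9.54% of all measured genes, with a median of -3.65. With at least 5 CPM required in both libraries 13 of them were left, all lower, with a median of -2.42. The others had passed the filter through DR alone, where they were high. The median level of the 39 genes was 59.0 CPM with DR, 53.3 CPM with c-JunDN and 140 CPM with Jdp2, but 2.93 CPM in WT MEF and 2.50 CPM with c-Jun. In 38 of the 39 genes DR was itself at least 2-fold above WT MEF. Against WT MEF, 10 of the 19 measured genes were lower with c-Jun and none higher, with a median of -1.26. The set was thus high in 3 of the 4 libraries that carried an introduced gene, and low in WT MEF and with c-Jun. Which of the 2 libraries of the comparison stands apart cannot be told from 1 library each.

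Ifit1, a protein that binds viral RNA and is shown above with its promoter, was at 4.50 CPM with c-Jun, 257 CPM with DR, 3.35 CPM in WT MEF, 292 CPM with c-JunDN and 470 CPM with Jdp2. Oasl2, an oligoadenylate synthetase-like protein, was at 2.00 CPM against 146 with DR and 1.95 in WT MEF, a 72.8-fold lower level (28.1 to 269). Mx2 (0.50 against 66.7 CPM) and Iigp1 (0.50 against 62.9 CPM) had 1 count each with c-Jun. Lgals3bp, by contrast, was below WT MEF as well, at 15.5 CPM against 41.3 CPM there and 370 with DR. The Ifit, Oas, Mx and Iigp genes have close copies among which reads can be divided.

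Of 26 sensors and signalling genes of the same pathway, 11 were lower and none higher, with a median of -0.64. Against WT MEF 5 of 24 were lower and 2 higher, with a median of -0.16. Irf7, the amplifier of interferon production, was at 1.5 CPM against 72.1 with DR and 1.46 in WT MEF, 48.1-fold lower (16.1 to 236). Stat2 was 10.9-fold lower (8.45 to 14.2), at 33.0 CPM with c-Jun and 26.9 CPM in WT MEF. Dhx58, the RNA sensor LGP2, was 12.8-fold lower (5.205 to 40.6). MHC class I genes and antigen processing had 14 of 20 lower and none higher, with a median of -1.20 against DR but 0.30 against WT MEF. Tap1, the peptide transporter, was at 14.0 CPM against 76.9 with DR and 11.2 in WT MEF. Psmb8, an immunoproteasome subunit, was at 2.50 against 23.7 CPM. H2-T10, whose reads may be shared with other H2 genes, was at 7.498 CPM against 34.3 with DR and 0.79 in WT MEF.

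**Figure D4:**
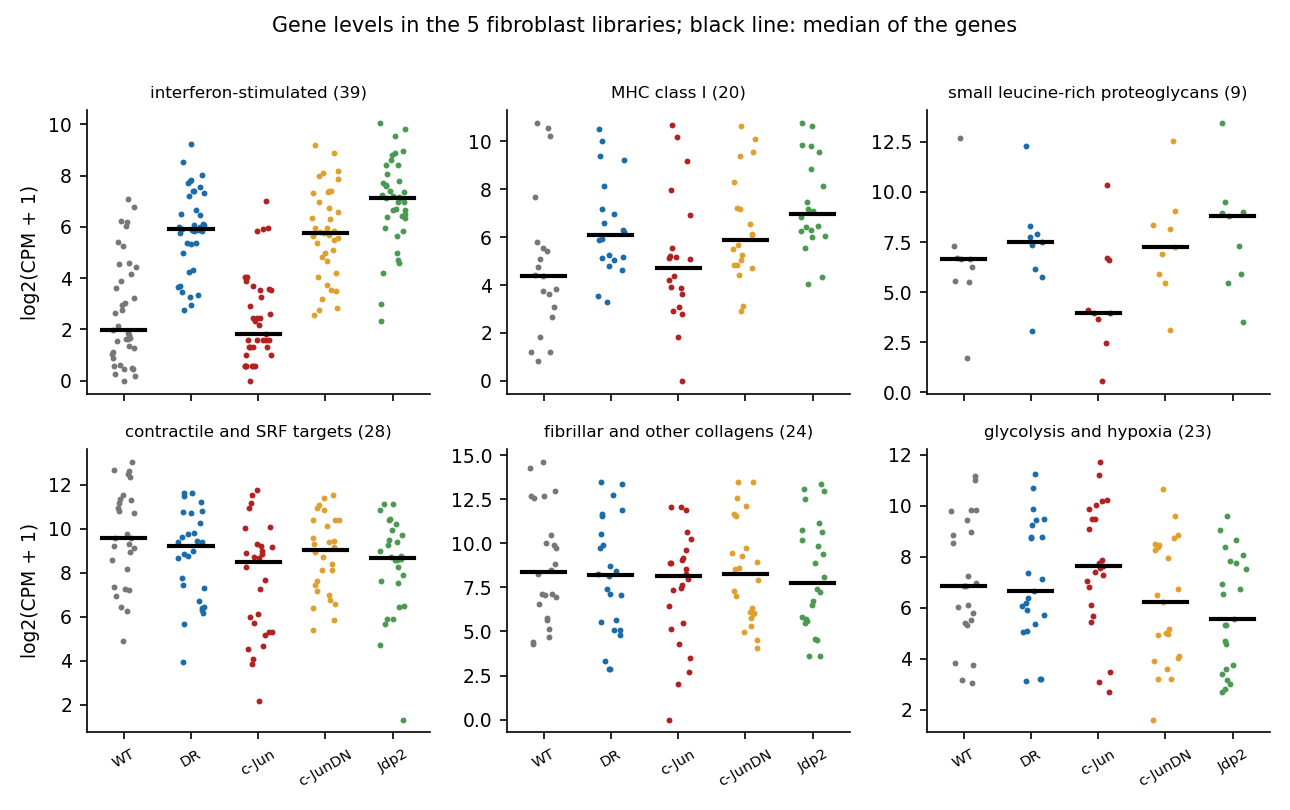
Each panel shows the measured genes of 1 list as points in each of the 5 fibroblast libraries, on a y axis of log2(CPM + 1), with the median as a black line. Interferon-stimulated genes are low in WT and c-Jun and high in DR, c-JunDN and Jdp2, while the median of small leucine-rich proteoglycans is lowest with c-Jun.

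Complement genes, part of innate immunity, had 7 of 10 lower and none higher, with a median of -2.06. With at least 5 CPM required in both libraries 5 were left, 3 of them lower, with a median of -1.30. Against WT MEF 3 of 8 were lower, the median was -0.89, and DR was at least 2-fold above WT MEF in 6 of the 10. C3, the central component, had no count with c-Jun and was at least 7.42-fold lower than with DR. The chemokine list, whose proteins attract leukocytes, also held the attractant Rarres2, which is not of the chemokine family. Of its 13 measured genes 7 were lower and 4 higher, Rarres2 among the latter, while against WT MEF 2 of 10 were lower and 4 higher. Cxcl10, an interferon-induced chemokine, had no count with c-Jun and was at least 24.5-fold lower, but WT MEF held 0.24 CPM of it. Cxcl14 was 12.1-fold lower (7.56 to 20.4), at 9.50 CPM against 115 with DR and 168 in WT MEF.

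Glutathione transferases stood at both ends of the NRF2 list, the genes of the oxidative stress response, which had 5 of 29 higher and 6 lower and a median of -0.08. Gsta4, which detoxifies products of lipid oxidation, was at 1117 CPM with c-Jun and between 9.63 and 20.5 CPM in the other 4 libraries, a ratio to DR of 55.0 (40.6 to 76.5). Gsta2 had 128 counts and Gsta1 49 with c-Jun and none in the other 4 libraries, so that they were at least 44.1-fold and 16.9-fold higher than with DR. These are near-identical genes and their split is uncertain. The mu class transferases Gstm1 and Gstm2, which are close copies too, were lower, with log2 ratios of -1.58 and -3.17. Srxn1, sulfiredoxin, was 11.4-fold higher (9.50 to 13.8), at 690 against 60.4 CPM. Gsr, glutathione reductase, was 2.60-fold higher (1.90 to 3.61), at 70.5 against 27.1 CPM. Among other NRF2 targets the log2 ratios were -1.13 for Nqo1, -0.75 for Hmox1, 0.19 for Gclc and 0.72 for Txnrd1.

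Glycolysis and hypoxia genes had 6 of 23 higher and none lower, with a median of 0.57, and c-Jun was the highest of the 5 fibroblast libraries in 19 of the 23. Pfkfb3, which makes the activator of glycolytic flux, was at 213 CPM against 40.6 with DR (ratio 5.24, 4.14 to 6.71). The lactate transporter Slc16a3 was at 170 against 58.5 CPM, Bnip3, a mitophagy receptor, at 186 against 65.8 CPM, and the glucose transporter Slc2a1 at 235 against 99.6 CPM. None of 28 respiratory chain subunits was called, and their log2 ratios ran from -0.34 to 0.64. Sterol synthesis genes had 12 of 23 lower and 1 higher, with a median of -1.02. Dhcr7, Sc5d and Cyp51, enzymes of late sterol synthesis, were 3.47-fold (2.44 to 5.03), 2.86-fold (2.03 to 4.09) and 2.76-fold (2.31 to 3.30) lower. Insig1, which restrains the pathway, was the higher one, at 277 against 99.6 CPM.

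Few genes of the cell cycle were called. Of 31 replication and mitosis genes 2 were higher and none lower, though 29 had a log2 ratio above 0. The median of this list was 0.45 against DR and -0.04 against WT MEF. Among 24 cyclins and CDK inhibitors none was higher and 2 were lower, Ccnd1 (2.46-fold, 2.11 to 2.87) and Cdkn2b (2.75-fold, 1.98 to 3.87). Of 22 p53 targets 3 were lower, Gdf15 (11.1-fold from 2 counts, 2.75 to 97.4), Fas (4.11-fold, 2.36 to 7.596) and Bbc3 (2.11-fold, 1.39 to 3.26). Among 30 ribosomal protein genes 1 was called, Rps23, which has processed copies in the genome. Imprinted genes had 6 of 15 lower and 1 higher, led by Mest at 17.0 CPM against 385 with DR and 249 in WT MEF (22.7-fold lower, 16.1 to 33.0) and Plagl1 (7.05-fold lower, 5.62 to 8.94).

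Of 28 HOX and patterning genes, which set position in the embryo, 8 were lower and none higher against DR, with a median of -0.51. With at least 5 CPM required in both libraries 22 were left, 3 of them lower, with a median of -0.40. With a pseudocount of 5, 5 of the 28 were lower. Against WT MEF 3 of 24 were lower and 3 higher, with a median of -0.06. Hoxa10 was 8.13-fold lower (3.22 to 26.3). Of 32 regulators of mesenchyme and of epithelial-mesenchymal transition 2 were higher and 6 lower. Of the 26 with at least 5 CPM in both libraries 1 was higher and 3 were lower. Sox11 was 6.61-fold higher (5.00 to 8.88), at 185 against 28.0 CPM, and Hey1, without a count with DR, was at least 4.13-fold higher but below the 6.89 CPM of WT MEF. Nfib was 4.14-fold lower (2.92 to 5.99) and Meox2 6.77-fold lower from 2 counts (1.56 to 61.4). The log2 ratios of Prrx1 (0.09), Twist1 (-0.94), Snai2 (0.82) and Zeb1 (0.32) were under the call. Of 26 pluripotency genes 6 were measured, and the 2 called, Klf4 and Klf2, were lower.

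Of 16 general markers of fibroblasts, all were measured and 15 had at least 5 CPM in both libraries. None was higher and 8 were lower, for a median of -1.06, and the summed level was 24620 CPM with c-Jun and 51306 CPM with DR. Vim, vimentin, was at 5174 against 3218 CPM, and Thy1 at 288 against 391.7 CPM. Markers of other cells were looked at in the same way. Of 17 macrophage markers 5 were measured, with 2 higher, the receptor Csf1r (73.0 against 4.35 CPM) and Cd14 (27.0 against 6.29 CPM), and 3 lower, among them the lysozymes Lyz1 and Lyz2, whose reads may be shared. The summed level of the macrophage list was 144 CPM with c-Jun and 120 CPM with DR. Endothelial, keratinocyte and skeletal muscle lists had 2 measured genes each and none called, and none of the 8 erythroid markers was measured.

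Mesothelial markers were lower in 6 of 7 cases with a median of -1.88, and none was higher. The median level of the 7 was 10.6 CPM with DR and 1.5 CPM with c-Jun, so most passed the filter of 5 CPM through DR alone. With a pseudocount of 5, 3 of the 7 were lower and the median was -0.97. Against WT MEF none of the 3 measured was called. Their summed level was 25.5 CPM with c-Jun, 73.0 CPM with DR and 32.4 CPM in WT MEF. Upk3b, a surface marker of mesothelium, had no count with c-Jun and was at least 8.06-fold lower. Adipocyte markers were summed at 24.0 CPM with c-Jun, 249 CPM with DR and 46.4 CPM in WT MEF. Lpl, lipoprotein lipase, made most of the DR sum, at 223 CPM against 11.0 CPM with c-Jun. In 3 of the 4 measured adipocyte markers DR was at least 2-fold above WT MEF. Whether cells of these kinds were fewer in the c-Jun culture was not tested. Of 13 neural and glial markers 6 were measured, 4 higher and none lower, with a median of 1.56. Stmn2, a microtubule regulator of growing axons, was at 515 CPM against 16.4 with DR and 21.7 in WT MEF (ratio 31.3, 22.3 to 45.5). Gap43, a growth cone protein, was at 553 CPM against 44.0 with DR, and Tubb3, neuronal tubulin, at 196 against 45.5 CPM.

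c-Jun was also induced in the ESC line, where doxycycline took Jun from 21.2 to 2015 CPM in 36 h. There 21.5% of 11133 measured genes were higher and 18.9% lower with doxycycline than without, and neither ESC library belongs to the fibroblast comparison. Of 9958 genes measured in both systems, 648 were higher in fibroblasts and 2048 in ESC, and 316 were higher in both. These are 48.8% of the fibroblast genes, where 20.6% of all genes measured in both were higher in ESC, and 15.4% of the ESC genes, where 6.51% of all were higher in fibroblasts. Of the lower genes, 107 were lower in both. These are 16.9% of the 635 fibroblast genes, beside 16.0% of all in ESC, and 6.70% of the 1597 ESC genes, beside 6.38% of all in fibroblasts. Of the genes lower in fibroblasts, 254 (40.0%) were higher in ESC, beside 20.6% of all. Of the genes higher in fibroblasts, 95 (14.7%) were lower in ESC, beside 16.0% of all. Genes under 5 CPM without doxycycline were measured in ESC only where they rose, which bears on these shares. Across all genes the log2 ratios had a Pearson r of 0.059 and a Spearman rho of -0.044, a description over genes with 1 library a side in each cell type.

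Named genes far up in both systems were among others Jun (log2 ratios 7.06 in fibroblasts and 6.50 in ESC), Adam8 (6.03 and 6.40), Gal (5.58 and 7.74), Sema7a (5.76 and 4.43), Il11 (3.37 and 7.27), Itga7 (3.13 and 7.21), Col5a3 (3.27 and 4.68), Dsc2 (3.08 and 6.71) and Fosl1 (3.06 and 5.11). They comprise a protease, a neuropeptide, a guidance protein, a cytokine and an AP-1 partner. Gsta4, by contrast, was at 5.71 in fibroblasts and -2.60 in ESC. Fosl2, another partner of Jun, was at 0.08 in fibroblasts and 7.68 in ESC. The list of S100 and annexin genes had none of 13 called in fibroblasts and all 10 measured genes higher in ESC. Keratin and cornified envelope genes had 5 measured in fibroblasts, with Sprr1a higher and Krt7 and Krt19 lower, while all 13 measured in ESC were higher. Genes under 5 CPM without doxycycline were measured in ESC only where they rose, and the measured members of a list differ between the 2 cell types. No test of a difference between the 2 cell types was possible with these libraries.

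**Figure D5:**
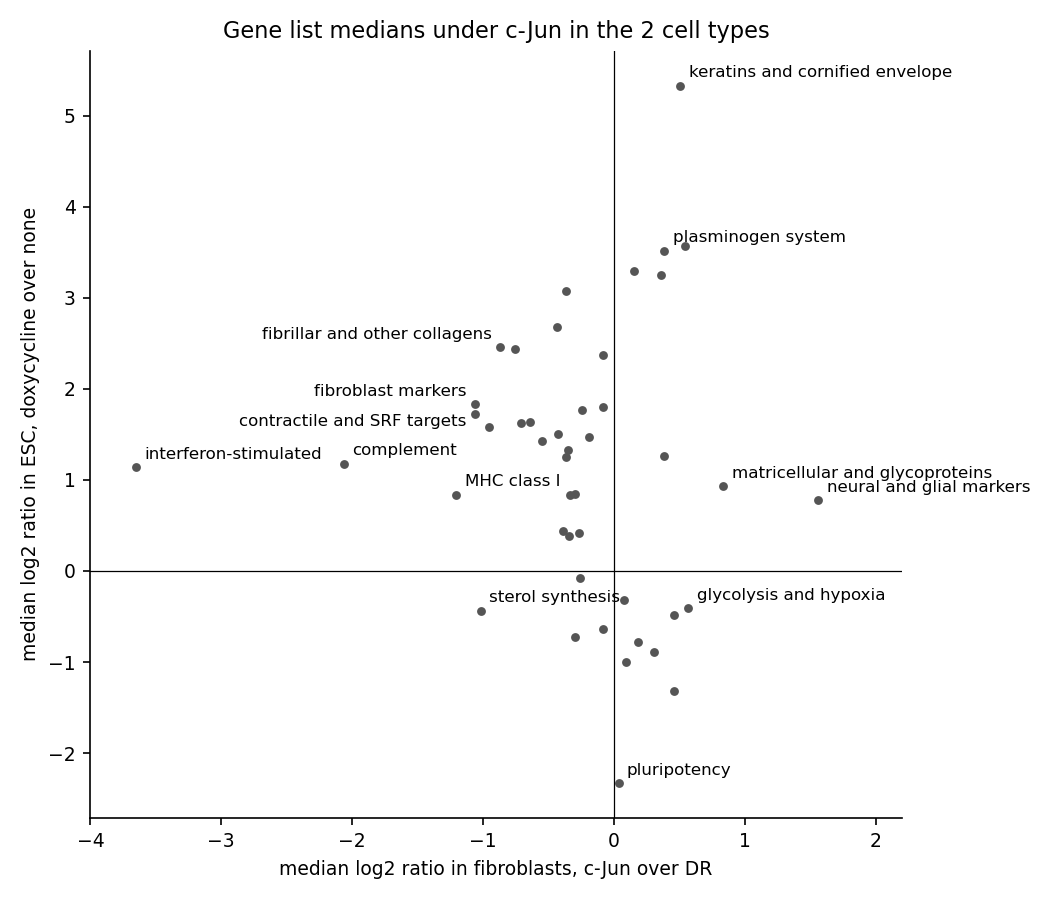
Each point is a gene list with at least 5 measured genes in both cell types, with its median log2 ratio of c-Jun over DR in fibroblasts on the x axis and of doxycycline over none in ESC on the y axis. Interferon-stimulated genes lie at -3.65 and 1.14, contractile genes at -1.06 and 1.73, and most lists with a negative fibroblast median lie above 0 in ESC.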

How the data were processed

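RNA was sequenced from TruSeq libraries of total RNA, per the labels' protocols. Per the submitters' processing notes the authors used RSEM 1.1.21 and mm9; the aligner is not given in the sources used here. Each deposited table holds an RSEM expected count per gene, rounded here to whole counts, and a deposited fraction of transcripts, which was used as an alternative after scaling (TPM). Which copies shared reads is not recorded.

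Counts of 12 RNA libraries over 20325 genes were scaled with edgeR 4.0.16 (TMM). A pseudocount of 1 was added to CPM before each ratio, genes under 5 CPM on both sides were left out, and the call was 2-fold. Intervals are exact conditional binomial (95%, scipy 1.17.1). There was 1 library a side, so no test was made. The ratio, call and interval steps were tried on counts simulated with counting error only, for genes with many counts. The scaling step and genes with few counts were not covered by that trial. An RNA library of Oct4-expressing fibroblasts on another gene annotation and the ChIP peak lists were not used here.

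The members and the 56 gene lists (1198 names, of which 1191 were in the table) were chosen with earlier results of these data known; Stmn2 was taken out of the keratin list, where it was misplaced. Named genes are Jun, the AP-1 family, up to 4 of each list with the largest log2 ratio in size, the 15 highest and 15 lowest also called against WT MEF, and the 10 most expressed called genes; some genes under this rule are not reported here. Mmp3, Mmp12, Mmp13, Plat, Vegfa, Itga5, Itgb3, Gstm1, Gstm2, Nqo1, Hmox1, Gsr, Gclc, Txnrd1, Prrx1, Twist1, Snai2, Zeb1, Vim and Thy1 were chosen after their values were seen. Alternatives covered scaling, filter, pseudocount, deposited fraction, a stricter call and WT MEF as the control.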

Additional observations from a re-analysis of the deposited data

Results flagged for a closer look

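Some results had opposite directions with c-Jun in fibroblasts (against DR) and in ESC (doxycycline against none), at 2-fold or more for the median of a list with at least 5 measured genes and at 8-fold or more for a named gene. The difference itself was not tested, as each group is 1 library. The measured members of a list differ between the 2 cell types, and genes under 5 CPM on 1 side were measured only where they were higher on the other. The median log2 ratio of interferon-stimulated genes was -3.65 in fibroblasts (39 genes) and 1.14 in ESC (26 genes). For complement genes it was -2.06 (10 genes) and 1.18 (5 genes). Contractile genes had -1.06 (28 genes) and 1.73 (24 genes), and fibroblast markers -1.06 (16 genes) and 1.83 (8 genes).

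Among named genes, the type IV collagen chains had log2 ratios of -3.53 (Col4a1) and -3.74 (Col4a2) in fibroblasts and 3.88 and 4.55 in ESC. The matrix glycoprotein Tinagl1 was at -5.01 and 5.44. The integrin subunit Itga8 was at -3.88 and 4.42, and the netrin receptor Unc5c at -3.05 and 3.90. The interferon pathway gene Irf7 was at -4.87 in fibroblasts and 3.24 in ESC.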

How the results depend on the processing

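The 861 higher and 1060 lower genes became 533 and 637 with a filter of 20 CPM in 1 library, 502 and 607 with 5 CPM in both, and 402 and 525 where the whole counting interval had to lie beyond 2-fold; fewer genes are tested or a stricter rule is used by construction. The genes above every other fibroblast library were 251 at 20 CPM, those below every other 238 with a pseudocount of 5, and those called the same way in fibroblasts and ESC 229 at 20 CPM. Other scalings moved the median of all genes to at most 0.056, and it was -0.092 with WT MEF as the control. Over these and the other settings, the share of calls that were higher lay between 44.4% (WT MEF as the control) and 48.5% (scaling by total counts). With WT MEF as the control the median of the chemokine list was 0.51 and of MHC class I 0.30. Medians nearer 0 turned there too, among others for ERK feedback (-0.39), plasminogen (-0.17), other growth factors (0.14), cyclins (-0.26), replication and mitosis (-0.04), S100 and annexins (-0.06) and the AP-1 family (0.23). There also the log2 ratio turned for Bbc3 (1.47), Cebpb (0.29), Cebpd (0.74), Ddit3 (0.45), Dusp5 (-0.39), Errfi1 (-0.02), Gjb2 (-0.68), H2-T10 (2.25), Hbegf (-0.60), Hey1 (-0.17), Stat2 (0.28) and Tap1 (0.30). The median of macrophage markers was 1.94 at 20 CPM, with few genes left; for the other turns the cause was not tested. No paired analysis was possible because each group has 1 library, and leaving out a replicate was not possible for the same reason. The depth of the c-Jun and DR libraries leaves genes near 5 CPM with few counts.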

Other observations

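Several genes known from nerve cells that regrow after injury were high in the c-Jun fibroblasts; they were chosen after their values were seen and form no list of the comparison. Sprr1a, a small proline-rich protein, was at 132 CPM with c-Jun and at most 0.48 CPM in the other 4 fibroblast libraries. Gal, the neuropeptide galanin, was at 70.0 CPM and at most 0.82 CPM elsewhere. Vgf, a neuropeptide precursor, was at 12.0 CPM and at most 1.64 CPM elsewhere, and Tubb2b, a neuronal tubulin, at 486 CPM against 202 with DR. Atf3, the AP-1 partner best known for induction in injured neurons, was at 13.0 CPM against 11.1 with DR.

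Agtr2, the type 2 angiotensin receptor, was at 8.497 CPM with c-Jun, 262 CPM with DR, 39.6 CPM in WT MEF, 52.1 CPM with c-JunDN and 164 CPM with Jdp2. Egfl6, a secreted matrix protein, had no count with c-Jun and was at least 43.9-fold lower than with DR. Mgp, the inhibitor of matrix mineralisation, was at 5.00 CPM with c-Jun and between 134 and 475 CPM in the other 4 libraries.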
